A study of Mus musculus with 18 samples.

Results

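The GM-CSF receptor and the STAT5 pathway below it were followed through 10 named genes in mouse bone marrow cultures. They are the receptor subunit genes Csf2ra, Csf2rb and Csf2rb2, the transcription factor genes Stat5a and Stat5b, and the described STAT5 targets Cish, Socs2, Il2ra, Pim1 and Bcl2l1. They were taken by name from 55536 gene IDs, whose versioned Ensembl identifiers were matched to symbols in GENCODE M21, and all 10 were found and passed the filter on low counts. Marrow came from BALB/c mice labelled Cysltr1 deficient (called labelled-deficient here) and from BALB/c wild-type (WT) mice. Cysltr1 encodes the type 1 receptor for cysteinyl leukotrienes. Cells of each genotype were grown for 4 days with GM-CSF at 40 ng/mL and conditioned medium of EMT6 cells, with GM-CSF at 40 ng/mL and IL-6 at 40 ng/mL, or with GM-CSF at 40 ng/mL alone. EMT6 is a mouse mammary carcinoma line, and its medium, conditioned for 24 h, made up 50% of the volume. GM-CSF was thus present in all 6 groups, and the design holds no culture without it. Each group had 3 bulk poly(A) RNA libraries, each from a pool of 3 mice. The labels give neither the allele behind the deficiency nor the age of the mice, and do not say whether the 3 libraries of a group came from separate pools. The p-values therefore measure the spread between these libraries, which may be technical.

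GM-CSF binds the alpha chain encoded by Csf2ra, which pairs with the beta chain encoded by Csf2rb to form the signalling receptor. That beta chain also serves the receptors for IL-3 and IL-5, while mice carry a second, closely related beta gene, Csf2rb2, whose product works with the IL-3 receptor alpha chain. The kinase JAK2, bound to the beta chain, phosphorylates STAT5A and STAT5B, which enter the nucleus and bind palindromic sites. Among the genes they switch on are Cish and Socs2, whose proteins dampen cytokine signalling, the kinase gene Pim1, the survival gene Bcl2l1 (encoding BCL-XL) and, best known from lymphocytes, Il2ra, the alpha chain of the IL-2 receptor. In marrow, GM-CSF drives the growth of granulocytes, macrophages and related cells from progenitors.

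The sequences before the start sites of 3 of these genes are shown because they head the receptor and the member with the strongest fall in WT cultures. The Csf2rb2 sequence also holds the only STAT5 palindrome found in the promoter windows searched. RefSeq promoter windows on build GRCm38.p6 were matched by symbol for 8 of 10 members, with 13 windows in all. Csf2rb and Socs2 had no window. The palindrome TTCNNNGAA, searched over the 250 bases before each RefSeq start, reads the same on either strand. It was in 1 of the 13 windows, against 7.02% of all windows of this length in the table. The variant with a wider spacer, TTCNNNNGAA, was in 0 of the 13 windows, against 5.85% of all. A match is a description of the letters and not a binding site. Not every window lies before the annotated gene. The Cish window lies wholly in annotated exons (250 bases), as do windows of Bcl2l1. Windows of Stat5a and Stat5b hold up to 175 and 143 exon bases. The lack of a match in Cish therefore says nothing of the sequence before its annotated start, and Csf2rb and Socs2 were not searched. Each window is written from 5′ to 3′ on the strand of the gene, and capitals mark the palindrome, which lies 15 to 7 bases before the start of Csf2rb2. The windows are chr19:61228419-61228668 (minus strand) for Csf2ra, chr15:78305722-78305971 (minus strand) for Csf2rb2 and chr2:11642542-11642791 (plus strand) for Il2ra.
Csf2ra: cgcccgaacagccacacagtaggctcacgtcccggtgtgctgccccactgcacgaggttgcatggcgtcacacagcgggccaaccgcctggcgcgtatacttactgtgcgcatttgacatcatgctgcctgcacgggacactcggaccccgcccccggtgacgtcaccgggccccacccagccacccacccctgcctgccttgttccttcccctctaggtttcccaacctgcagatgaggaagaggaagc
Csf2rb2: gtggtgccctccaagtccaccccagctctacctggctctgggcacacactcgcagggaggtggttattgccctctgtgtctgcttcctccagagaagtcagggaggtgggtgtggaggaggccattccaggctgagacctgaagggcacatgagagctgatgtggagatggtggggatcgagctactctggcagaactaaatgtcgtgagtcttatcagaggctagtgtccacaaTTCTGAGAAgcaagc
Il2ra: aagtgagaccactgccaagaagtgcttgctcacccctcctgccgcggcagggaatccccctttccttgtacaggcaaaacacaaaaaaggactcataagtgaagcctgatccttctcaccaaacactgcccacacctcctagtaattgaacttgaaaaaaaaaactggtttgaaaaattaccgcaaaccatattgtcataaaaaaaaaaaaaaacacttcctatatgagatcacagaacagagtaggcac

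Per library, 9.58 to 32.0 M counts fell in annotated genes. Reads outside annotated features took 50.1% to 50.4% of reads in labelled-deficient EMT6 medium libraries, 34.7% to 37.5% in WT EMT6 medium libraries and 12.8% to 20.5% elsewhere. If such reads fall evenly over the genome, they would make up 18.0% and 11.5% of Il2ra counts and 17.4% and 12.6% of Socs2 counts in labelled-deficient and WT EMT6 medium libraries, and at most 6.45% for any other member. Cysltr1 had 96 to 122 counts in labelled-deficient and 68 to 83 in WT EMT6 medium libraries, 1867 to 1994 and 1575 to 1981 with IL-6, and 1271 to 1904 and 915 to 1718 under GM-CSF alone. Its transcript was thus not lower in the labelled-deficient libraries, and counts over the whole gene do not check which part of it an allele removes. In all 18 pairs of replicates, counts differed beyond sampling noise (chi-square of 1.64 to 7.51 per degree), and no library was treated as a copy of another. Markers of other cell types moved between the groups too. The summed level of 7 neutrophil markers was 1042 to 1308 CPM in labelled-deficient and 1779 to 2039 CPM in WT EMT6 medium cultures, 2147 to 2217 and 5507 to 5708 CPM with IL-6, and 4079.8 to 4329.6 and 8733 to 9770.4 CPM under GM-CSF alone. That of 5 dendritic cell markers was 201 to 228 and 251 to 255 CPM in EMT6 medium, 1166 to 1218 and 1281 to 1338 CPM with IL-6, and 1626 to 1677 and 2038 to 2127 CPM under GM-CSF alone, in the same order. That of 5 macrophage markers was 945 to 1072 and 1635 to 1766 CPM, then 2295 to 2406 and 2851 to 3032 CPM, then 1888 to 1936 and 2304 to 2571 CPM. The 4 eosinophil markers summed to 524 to 594 and 842 to 945 CPM, then 109 to 116 and 396 to 415 CPM, then 155 to 174 and 578 to 659 CPM. The 5 mast cell and basophil markers summed to 112 to 113 and 132 to 137 CPM, then 254 to 257 and 310.0 to 318 CPM, then 219 to 224 and 331 to 354 CPM, and the 4 B cell markers to 119.8 to 126 and 207 to 224 CPM, then 50.0 to 55.4 and 77.1 to 79.9 CPM, then 57.5 to 61.0 and 86.7 to 95.9 CPM. The 5 carcinoma markers, chosen for the EMT6 source, summed to 48.3 to 62.7 CPM in labelled-deficient and 39.2 to 42.8 CPM in WT EMT6 medium cultures. With IL-6 their sums were 1062 to 1111 and 1090 to 1157 CPM, and under GM-CSF alone 1073 to 1101 and 818 to 881 CPM. No gene of these lists was at 0 in a group. The part of these shifts in the results below was not tested.

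Levels are gene counts relative to the library total (CPM), with libraries scaled by the trimmed mean of M-values (TMM), and levels of different genes are compared per kilobase of exon. Per kilobase, Csf2rb stood highest of the 10 genes in WT GM-CSF cultures, at 412 ± 31.4 CPM per kb (SD, n = 3, as for all levels here). Pim1 followed at 204 ± 12.7, Csf2rb2 at 197 ± 14.3, Csf2ra at 145 ± 9.41 and Cish at 71.4 ± 6.07 CPM per kb. Il2ra (45.2 ± 2.99), Bcl2l1 (27.5 ± 0.911), Stat5b (23.9 ± 1.08), Socs2 (18.3 ± 0.292) and Stat5a (10.4 ± 0.581) closed the order. The mRNA of the receptor subunits was thus more abundant, per kilobase, than that of either STAT5 gene.

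On the TMM scale, the group with the highest mean level differed between members. Csf2rb, Csf2rb2 and Stat5b peaked in WT cultures with IL-6, Csf2ra, Stat5a and Socs2 in labelled-deficient cultures under GM-CSF alone, Cish, Il2ra and Pim1 in WT cultures under GM-CSF alone, and Bcl2l1 in WT cultures with EMT6 medium. For Csf2rb, Stat5b, Cish and Pim1 the libraries of the highest group overlapped those of the next. The lowest group was labelled-deficient with EMT6 medium for 7 members, WT with EMT6 medium for Socs2 and Il2ra, and labelled-deficient under GM-CSF alone for Bcl2l1. With libraries scaled by their size alone, the highest group stayed as given for Csf2ra, Socs2, Il2ra and Bcl2l1 and was another for the remaining 6 members, and the lowest stayed as given for Csf2rb, Csf2rb2, Socs2 and Il2ra and was another for the remaining 6. On the TMM scale, Il2ra separated all 6 groups without overlap of libraries. Socs2 separated all neighbours in its order but WT GM-CSF and labelled-deficient IL-6 cultures, whose libraries overlapped. In Stat5a, by contrast, labelled-deficient IL-6, WT GM-CSF, WT EMT6 medium and WT IL-6 cultures formed a run of overlapping neighbours. In Cish, WT GM-CSF, labelled-deficient GM-CSF and WT IL-6 cultures overlapped in the same way.

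**Figure D1:**
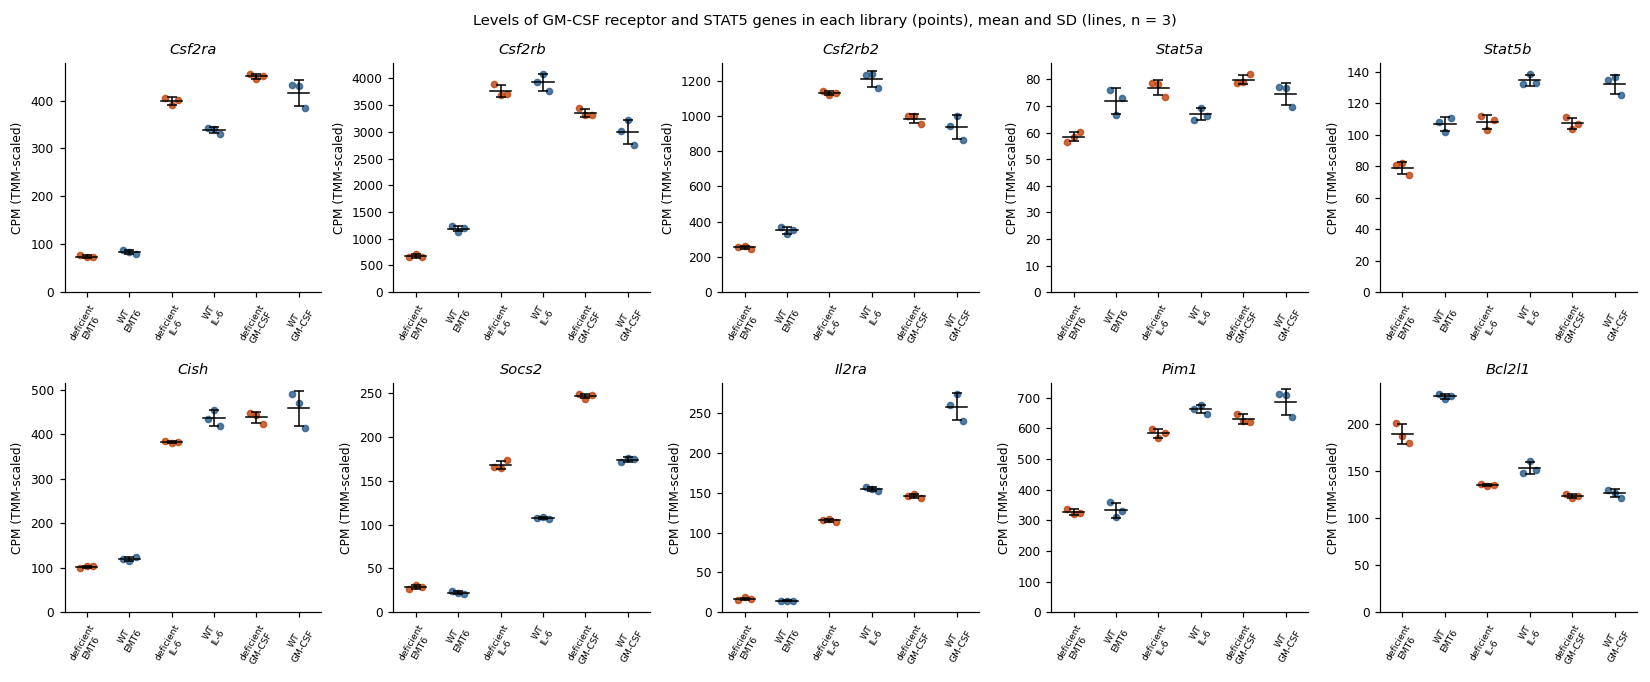
TMM-scaled CPM (y axis, starting at 0) of each of the 10 genes in every library (points) with the mean and SD of 3 libraries (lines), by genotype label and culture. Il2ra and Socs2 sat lowest in EMT6 medium, at 14.2 to 31.2 CPM, while Bcl2l1 was highest there, at 179 to 231 CPM.

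EMT6 conditioned medium was compared with GM-CSF alone within each genotype label. No group received medium conditioned by other cells. Factors released by EMT6 cells and the use of spent medium as such therefore cannot be told apart. The receptor subunits and 4 of the 5 targets were lower with EMT6 medium in both genotypes, by a log2 fold change of -0.95 to -4.14, while Bcl2l1 was higher. All 10 members were called in labelled-deficient cultures (1 higher, 9 lower) and 9 of 10 in WT cultures (1 higher, 8 lower). The call was an adjusted p under 0.05 in edgeR's quasi-likelihood F test, with Benjamini-Hochberg adjustment over the 28334 genes tested, as in all comparisons below. EMT6 medium changed most genes, so this count says little by itself: 87.2% of all genes tested were called in labelled-deficient and 81.3% in WT cultures. Among the 13270 genes with a mean of 5 CPM or more in at least 1 group the shares were 90.6% and 90.2%, with 61.6% and 64.1% called lower. The median log2 fold change of the 10 members was -2.03 in labelled-deficient and -1.37 in WT cultures, against -0.49 and -0.48 over those 13270 genes and 0.83 and 0.49 over all genes tested. Of 7 neutrophil markers 6 were lower and 1 higher in labelled-deficient cultures, and 7 were lower in WT cultures. Of 5 macrophage and of 5 dendritic cell markers, 4 were lower and 1 was higher in each genotype. Of 5 mast cell and basophil markers 4 were lower and 1 higher in labelled-deficient cultures, and 5 were lower in WT cultures. All 4 B cell markers were higher in each genotype, while of 4 eosinophil markers 3 were higher and 1 lower. Of 5 carcinoma markers 3 were higher and 1 lower in labelled-deficient, and 2 higher and 2 lower in WT cultures. The part of these markers in the results was not tested. In bulk RNA, fewer cells of a type and less RNA per cell cannot be told apart.

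Csf2ra, the GM-CSF-binding chain (chromosome 19, 61223957 to 61228429, minus strand, mm10), had 77.3, 72.9 and 73.1 CPM with EMT6 medium, against 456, 445 and 451 CPM under GM-CSF alone, in labelled-deficient cultures. In WT cultures it had 88.7, 83.5 and 80.8 CPM with EMT6 medium, against 433, 431 and 385 CPM under GM-CSF alone. No library overlapped. The gene was 6.05-fold lower in labelled-deficient (log2 fold change -2.60 ± 0.05, SE, adjusted p = 2.12e-36) and 4.93-fold lower in WT cultures (-2.30 ± 0.05, adjusted p = 6.32e-35).

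Csf2rb, the signalling beta chain (chromosome 15, 78325752 to 78353847, plus strand), had 660.3, 719 and 661 CPM with EMT6 medium, against 3438, 3308 and 3317 CPM under GM-CSF alone, in labelled-deficient cultures. In WT cultures the values were 1231, 1132 and 1203 CPM with EMT6 medium, against 3007, 3217 and 2760.1 CPM under GM-CSF alone. The labelled-deficient EMT6 medium libraries were thus lowest, and here too no groups overlapped. The fall was 4.93-fold in labelled-deficient (-2.30 ± 0.05, adjusted p = 6.56e-35) and 2.52-fold in WT cultures (-1.33 ± 0.05, adjusted p = 1.52e-26).

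Csf2rb2, the IL-3-specific beta gene (chromosome 15, 78282507 to 78305721, minus strand), had 259, 261 and 243 CPM with EMT6 medium, against 1001, 997 and 956 CPM under GM-CSF alone, in labelled-deficient cultures. In WT cultures it had 368, 329.7 and 354 CPM with EMT6 medium, against 941, 1001 and 866 CPM under GM-CSF alone. It fell 3.87-fold in labelled-deficient (-1.95 ± 0.05, adjusted p = 2.27e-32) and 2.67-fold in WT cultures (-1.42 ± 0.05, adjusted p = 2.00e-27). The coding sequences of Csf2rb and Csf2rb2 are 95.2% identical over 2631 aligned bases, and 26.0% of the 50-base windows of Csf2rb occur in Csf2rb2 unchanged. How the authors' counting shared out reads that match both genes is not given in the sources used here, so the split of counts between them is uncertain.

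Among the targets, Il2ra (chromosome 2, 11642807 to 11693193, plus strand) showed the strongest fall of the 10 members in WT and, close to Socs2, in labelled-deficient cultures. It had 15.3, 18.7 and 16.6 CPM with EMT6 medium, against 146, 148 and 144 CPM under GM-CSF alone, in labelled-deficient cultures (8.71-fold lower, -3.12 ± 0.06, adjusted p = 3.22e-36). In WT cultures it had 14.8, 14.2 and 14.6 CPM with EMT6 medium, against 259.8, 274 and 240.1 CPM under GM-CSF alone (17.7-fold lower, -4.14 ± 0.06, adjusted p = 4.67e-41). The genotypes lay close in EMT6 medium and far apart under GM-CSF alone. The 6 T and NK cell markers, of cells that can carry Il2ra, summed to 27.1 to 30.8 CPM in labelled-deficient and 15.4 to 19.1 CPM in WT EMT6 medium cultures, against 8.42 to 9.35 and 12.5 to 13.7 CPM under GM-CSF alone. In each genotype 3 of them were called higher and 1 lower with EMT6 medium. The 5 dendritic cell markers summed to 201 to 228 CPM in labelled-deficient and 251 to 255 CPM in WT EMT6 medium cultures. Under GM-CSF alone their sums were 1626 to 1677 and 2038 to 2127 CPM. The part of either set of markers in the level of Il2ra was not tested.

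The feedback inhibitor genes fell as well. Socs2, whose protein dampens growth hormone and cytokine signalling (chromosome 10, 95385362 to 95417180, minus strand), had 26.8, 31.2 and 28.9 CPM with EMT6 medium, against 249, 244 and 248 CPM under GM-CSF alone, in labelled-deficient cultures. In WT cultures it had 23.8, 22.5 and 20.7 CPM with EMT6 medium, against 171, 176 and 175 CPM under GM-CSF alone. The log2 fold changes were -3.10 ± 0.06 (adjusted p = 5.99e-38) in labelled-deficient and -2.96 ± 0.06 (adjusted p = 3.61e-37) in WT cultures, the second strongest fall among the members in WT.
Cish, an early STAT5-induced inhibitor (chromosome 9, 107296026 to 107302784, plus strand), had 99.4, 104 and 104 CPM with EMT6 medium, against 447, 443 and 424 CPM under GM-CSF alone, in labelled-deficient cultures. In WT cultures it had 120.3, 116 and 125 CPM with EMT6 medium, against 491, 469.5 and 415 CPM under GM-CSF alone. Its log2 fold changes were -2.10 ± 0.05 (adjusted p = 9.40e-33) in labelled-deficient and -1.93 ± 0.05 (adjusted p = 1.20e-31) in WT cultures.

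Pim1, a serine/threonine kinase of survival and growth (chromosome 17, 29490753 to 29496112, plus strand), fell less. It had 338, 319.6 and 323 CPM with EMT6 medium, against 648, 623 and 621 CPM under GM-CSF alone, in labelled-deficient cultures, and 358, 309.6 and 330.5 CPM against 712, 709.5 and 637 CPM in WT cultures. The log2 fold changes were -0.95 ± 0.05 (adjusted p = 4.24e-21) in labelled-deficient and -1.04 ± 0.05 (adjusted p = 1.47e-22) in WT cultures. An antisense gene, Gm26885, covers 488 exon bases of Pim1, or 14.5% of them, so some Pim1 counts may belong to it.
Bcl2l1, which encodes the anti-apoptotic protein BCL-XL (chromosome 2, 152780668 to 152831728, minus strand), was the exception. It had 201, 187 and 179 CPM with EMT6 medium, against 126, 121 and 124 CPM under GM-CSF alone, in labelled-deficient cultures, and 231, 226 and 229.9 CPM against 130.0, 127 and 122 CPM in WT cultures. It rose by a log2 fold change of 0.62 ± 0.05 (adjusted p = 4.13e-15) in labelled-deficient and 0.86 ± 0.05 (adjusted p = 4.30e-20) in WT cultures, and was higher in every EMT6 medium library than in any GM-CSF library. When any library of the comparison was left out, the value was 0.36 to 0.45 in labelled-deficient and 0.72 to 0.87 in WT cultures.

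The STAT5 genes themselves moved less than the other members in the fit reported here. Stat5a (chromosome 11, 100859351 to 100885169, plus strand) averaged 58.4 ± 1.75 CPM with EMT6 medium and 79.9 ± 1.82 CPM under GM-CSF alone in labelled-deficient cultures, and 71.9 ± 4.71 and 74.4 ± 4.14 CPM in WT cultures. Its log2 fold change was -0.45 ± 0.06 (adjusted p = 1.52e-09) in labelled-deficient and -0.05 ± 0.05 (adjusted p = 0.440) in WT cultures, where the libraries overlapped. Stat5b (chromosome 11, 100780731 to 100850724, minus strand) averaged 79.0 ± 4.06 CPM with EMT6 medium and 107 ± 3.57 CPM under GM-CSF alone in labelled-deficient cultures, and 107 ± 4.56 and 132 ± 5.99 CPM in WT cultures. Its log2 fold change was -0.44 ± 0.05 (adjusted p = 7.46e-10) in labelled-deficient and -0.30 ± 0.05 (adjusted p = 1.55e-06) in WT cultures.
These directions depended on the scaling. When libraries were scaled by their size alone instead of TMM, the median of all genes moved up by 0.62 in labelled-deficient and 0.49 in WT cultures (log2), and the values became 0.16 and 0.45 for Stat5a and 0.17 and 0.19 for Stat5b, all positive. The WT call of Stat5b was also lost with the filter at a mean of 5 CPM (-0.03) and with background subtracted (-0.05). Stat5a in WT cultures was called lower with DESeq2 (-0.18) and higher with that filter (0.22). The labelled-deficient values reached -0.73 for Stat5a and -0.72 for Stat5b under other ways of processing. With a library of the comparison left out they were -0.69 to -0.64 and -0.70 to -0.61. The falls of the receptor subunits, Cish, Socs2, Il2ra and Pim1 and the rise of Bcl2l1 kept their direction under all 8 other ways of processing, with Pim1 between -1.22 and -0.33 in labelled-deficient and between -1.18 and -0.54 in WT cultures. Leaving out any library of the labelled-deficient comparison moved the median of all genes by -0.23 to -0.20. These falls were then larger than given above, at -2.84 to -2.79 for Csf2ra, -2.56 to -2.49 for Csf2rb and -2.35 to -2.29 for Cish. The SE does not cover such shifts. The coding sequences of the STAT5 genes are 90.7% identical, with 25.9% of the 50-base windows of Stat5a in common, so their counts too may be shared. Stat5a also shares 72 exon bases with Stat3, which lies on the opposite strand.

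**Figure D2:**
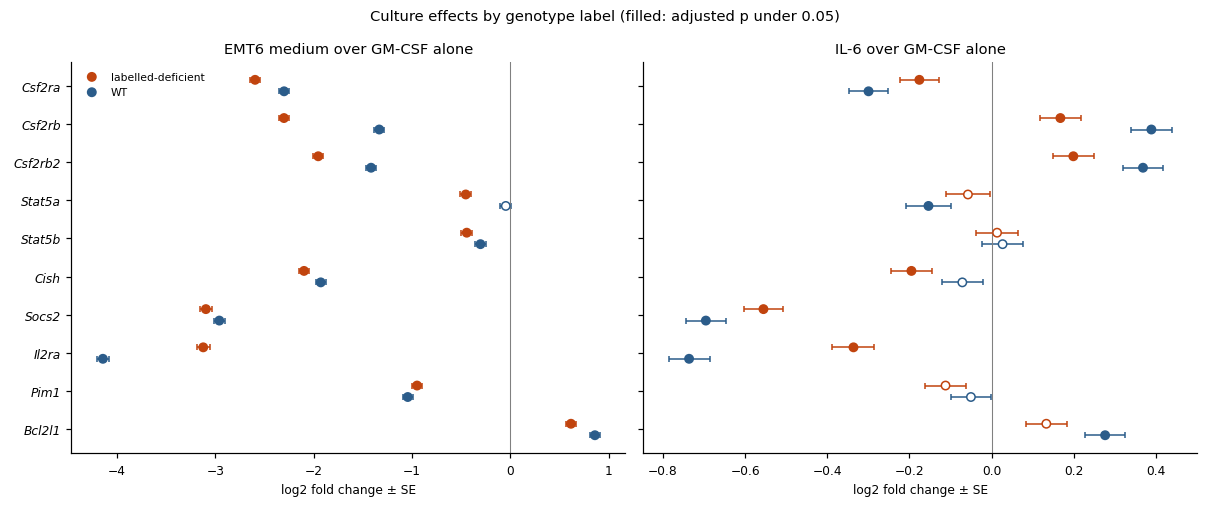
Log2 fold change with its SE of each gene for EMT6 medium (left) and IL-6 (right) over GM-CSF alone, in labelled-deficient (orange) and WT (blue) marrow, on axes of different width. EMT6 medium values run from -4.14 (Il2ra in WT) to 0.86 (Bcl2l1 in WT) and IL-6 values from -0.74 to 0.39; with library sizes alone the EMT6 medium values of Stat5a and Stat5b turn positive.

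IL-6, a cytokine that signals through STAT3, was compared with GM-CSF alone to ask how a second cytokine shifts the cultures. The receptor alpha chain was lower and both beta chains were higher with IL-6, in both genotypes, and Socs2 and Il2ra were lower. Of the 10 members, 6 were called in labelled-deficient cultures (2 higher, 4 lower), where 14.3% of all genes tested and 28.1% of those at 5 CPM or more were called. In WT cultures 7 were called (3 higher, 4 lower), against 21.7% of all genes tested and 42% of those at 5 CPM or more. No member changed by as much as a log2 fold change of 1. The median log2 fold change of the members was -0.08 in labelled-deficient and -0.06 in WT cultures, against 0.02 and -0.03 over all genes tested and -0.03 and -0.0049 over those at 5 CPM or more.

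Csf2rb had 3897, 3694 and 3712 CPM with IL-6 in labelled-deficient and 3928, 4080.4 and 3756 CPM in WT cultures. Every one of these libraries lay above the GM-CSF libraries of its genotype given earlier. The log2 fold change was 0.17 ± 0.05 (adjusted p = 0.0140) in labelled-deficient and 0.39 ± 0.05 (adjusted p = 2.10e-08) in WT cultures. The labelled-deficient call was lost with DESeq2 (0.13, adjusted p = 0.0832), and also without replicates 2 or 3 of GM-CSF or replicate 1 of IL-6 (0.16, 0.16 and 0.14).
Csf2rb2 had 1142, 1121 and 1129 CPM in labelled-deficient and 1229, 1238 and 1158 CPM in WT cultures with IL-6, with log2 fold changes of 0.20 ± 0.05 (adjusted p = 0.00274) and 0.37 ± 0.05 (adjusted p = 6.58e-08). Csf2ra had 406, 390.1 and 401 CPM in labelled-deficient and 343, 339.7 and 331 CPM in WT cultures with IL-6. Its log2 fold change was -0.18 ± 0.05 (adjusted p = 0.00699) in labelled-deficient and -0.30 ± 0.05 (adjusted p = 2.77e-06) in WT cultures. The labelled-deficient call of Csf2ra was lost without GM-CSF replicate 1 (-0.17, adjusted p = 0.0531) or IL-6 replicate 2 (-0.16, adjusted p = 0.0597).

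Among the targets, Il2ra had 116, 117 and 114 CPM in labelled-deficient and 157, 155 and 152 CPM in WT cultures with IL-6. Its log2 fold change was -0.34 ± 0.05 (adjusted p = 2.15e-06) in labelled-deficient and -0.74 ± 0.05 (adjusted p = 3.71e-16) in WT cultures. Socs2 had 166, 164 and 173 CPM in labelled-deficient and 107, 109 and 106 CPM in WT cultures with IL-6, with log2 fold changes of -0.56 ± 0.05 (adjusted p = 1.81e-12) and -0.70 ± 0.05 (adjusted p = 1.62e-15). The libraries of these genes did not overlap between cultures in either genotype.
Cish fell in labelled-deficient cultures (-0.20 ± 0.05, adjusted p = 0.00419) and was not called in WT cultures (-0.07 ± 0.05, adjusted p = 0.392). Bcl2l1 was not called in labelled-deficient cultures (0.13 ± 0.05, adjusted p = 0.0627) and rose in WT cultures (0.28 ± 0.05, adjusted p = 1.73e-05). In labelled-deficient cultures Bcl2l1 was called higher with library sizes alone (0.155) and with the filter at a mean of 5 CPM (0.153). The same held with only the groups compared (0.143) and with background subtracted (0.164). Stat5a was at -0.06 ± 0.05 (adjusted p = 0.600) in labelled-deficient cultures and fell in WT cultures (-0.15 ± 0.05, adjusted p = 0.0365), a call that 5 of 8 other ways of processing did not make. It was also lost without any of WT GM-CSF replicates 1 and 2 and WT IL-6 replicates 1 and 3 (-0.13 to -0.15). Stat5b and Pim1 were not called in either genotype, with values of 0.01 and -0.11 in labelled-deficient and 0.03 and -0.05 in WT cultures. Pim1 in labelled-deficient cultures was, however, called lower with DESeq2 (-0.15), with DESeq2 size factors (-0.15) and with only the groups compared (-0.10). Neutrophil markers fell with IL-6 too: 6 of 7 were called lower and 1 higher in both genotypes. Of 5 dendritic cell markers 4 were lower in each genotype and 1 was higher in labelled-deficient cultures. Of 5 macrophage markers 3 were higher and 1 was lower in each genotype. Of 5 mast cell and basophil markers 4 were higher in labelled-deficient and 1 was lower in WT cultures. Of 4 eosinophil markers 2 were lower in labelled-deficient and 3 in WT cultures. Of 4 B cell markers 1 and 2 were lower in that order of genotypes, and 1 of 6 T and NK cell markers was lower in WT cultures.

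The genotype label was compared within each culture, to ask how the Cysltr1 label alters the pathway. Socs2 was higher and Stat5b lower in labelled-deficient than in WT marrow in all 3 cultures, and Il2ra was lower under GM-CSF alone and with IL-6. In EMT6 medium the beta chains were lower in labelled-deficient cultures. Of the 10 members, 9 were called in EMT6 medium (2 higher, 7 lower), 8 with IL-6 (3 higher, 5 lower) and 4 under GM-CSF alone (2 higher, 2 lower). With library sizes alone, or with background subtracted, 7 were called under GM-CSF alone and 5 with IL-6. The shares of all genes tested that were called were 52.1% in EMT6 medium, 30.5% with IL-6 and 27.3% under GM-CSF alone, and 64.4%, 52.2% and 50.6% among genes at 5 CPM or more. The median log2 fold change of the members was -0.26, -0.14 and 0.02 in that order of cultures, against 0.27, 0.09 and 0.04 over all genes tested and -0.10, -0.08 and -0.06 over those at 5 CPM or more. Of the genes at 5 CPM or more, 39.8% were called lower in EMT6 medium, 36.7% with IL-6 and 33.6% under GM-CSF alone. All 7 neutrophil markers were lower in labelled-deficient cultures with IL-6 and under GM-CSF alone, and 6 of 7 in EMT6 medium, where 1 was higher. All 4 B cell markers were lower in each culture. Of 5 macrophage markers 3 were lower in EMT6 medium, 3 with IL-6 and 4 under GM-CSF alone, and 1 was higher in each culture. Of 4 eosinophil markers 2, 3 and 3 were lower in that order of cultures, and 1 was higher in EMT6 medium. Of 5 mast cell and basophil markers 3, 2 and 3 were lower, and 0, 2 and 1 were higher. Of 6 T and NK cell markers 3 were higher in EMT6 medium, 1 was higher and 1 lower with IL-6, and 1 was lower under GM-CSF alone. Of 5 dendritic cell markers 2 were higher and 2 lower in each culture. Of 5 carcinoma markers 3 were higher in EMT6 medium, and 1 was higher and 1 lower under GM-CSF alone. Their part in these differences was not tested.

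Socs2 had 166, 164 and 173 CPM in labelled-deficient and 107, 109 and 106 CPM in WT cultures with IL-6, a difference of 0.64 ± 0.05 on the log2 scale (adjusted p = 1.64e-14). Under GM-CSF alone it had 249, 244 and 248 CPM in labelled-deficient and 171, 176 and 175 CPM in WT cultures (0.50 ± 0.05, adjusted p = 7.89e-12). In EMT6 medium, where Socs2 was low, the difference was 0.37 ± 0.07 (adjusted p = 1.79e-05). The genotypes did not overlap in any culture, and over the 8 other ways of processing the difference stayed between 0.22 and 0.79 in the 3 cultures.

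Il2ra had 146, 148 and 144 CPM in labelled-deficient and 259.8, 274 and 240.1 CPM in WT cultures under GM-CSF alone, which is 1.76-fold lower (-0.82 ± 0.05, adjusted p = 6.24e-18). With IL-6 it was 1.34-fold lower (-0.42 ± 0.05, adjusted p = 6.54e-09). In EMT6 medium the value was 0.20 ± 0.08 (adjusted p = 0.0326), on levels of 16.9 ± 1.71 CPM in labelled-deficient and 14.6 ± 0.280 CPM in WT cultures. This last call failed under 5 of the 8 other ways of processing, among them DESeq2 (0.09, adjusted p = 0.401), and when any of the 6 EMT6 medium libraries was left out (0.01 to 0.19).

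Stat5b averaged 79.0 ± 4.06 CPM in labelled-deficient and 107 ± 4.56 CPM in WT cultures with EMT6 medium (-0.44 ± 0.05, adjusted p = 8.81e-09). With IL-6 the averages were 108 ± 4.58 CPM in labelled-deficient and 135 ± 3.58 CPM in WT cultures (-0.31 ± 0.05, adjusted p = 3.51e-06), and under GM-CSF alone 107 ± 3.57 and 132 ± 5.99 CPM (-0.30 ± 0.05, adjusted p = 7.15e-06). Stat5b was thus lower in each culture, with no overlap of genotypes and a range of -0.58 to -0.17 over the other ways of processing. Stat5a did not move with it. It was higher in labelled-deficient cultures with IL-6 (0.20 ± 0.05, adjusted p = 0.00358), lower in EMT6 medium (-0.30 ± 0.06, adjusted p = 3.09e-05) and not called under GM-CSF alone (0.10 ± 0.05, adjusted p = 0.166). With library sizes alone the EMT6 medium value was not called (-0.06), and 5 of the 8 other ways of processing made the call under GM-CSF alone (0.14 to 0.23).

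The receptor subunits differed most in EMT6 medium. Csf2rb averaged 680.2 ± 34.0 CPM in labelled-deficient and 1189 ± 51.0 CPM in WT cultures, or 1.75-fold lower (-0.81 ± 0.05, adjusted p = 3.06e-17), and Csf2rb2 254 ± 9.56 and 351 ± 19.3 CPM (-0.46 ± 0.05, adjusted p = 5.24e-10). Csf2ra was lower by less (-0.18 ± 0.05, adjusted p = 0.00560), a call lost with the filter at a mean of 5 CPM and with background subtracted (-0.09 each), and with library sizes alone its value was 0.06. Under GM-CSF alone, Csf2rb was higher in labelled-deficient cultures (0.16 ± 0.05, adjusted p = 0.00900), a call lost without WT replicate 3 (0.11, adjusted p = 0.104) or labelled-deficient replicate 1 (0.14, adjusted p = 0.0818). Csf2ra (0.12 ± 0.05, adjusted p = 0.0682) and Csf2rb2 (0.07 ± 0.05, adjusted p = 0.308) were not called there, but Csf2ra was called higher under 7 of the 8 other ways of processing (0.14 to 0.24) and Csf2rb2 under 4 (0.11 to 0.20). With IL-6, Csf2ra was higher (0.24 ± 0.05, adjusted p = 9.52e-05), while Csf2rb (-0.06 ± 0.05) and Csf2rb2 (-0.10 ± 0.05) were not called and turned to 0.09 and 0.05 with library sizes alone.

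In the fit reported here, the remaining targets differed by less than 0.3 on the log2 scale. In EMT6 medium other ways of processing reached -0.38 for Cish and -0.42 for Bcl2l1. With a library of that comparison left out, Cish was at -0.36 to -0.22 and Bcl2l1 at -0.43 to -0.29. Pim1 was not called in EMT6 medium (-0.03 ± 0.05, adjusted p = 0.673). It was called lower with DESeq2 (-0.13) and higher with library sizes alone (0.22). Cish was lower in labelled-deficient cultures in EMT6 medium (-0.23 ± 0.05, adjusted p = 0.000483) and with IL-6 (-0.19 ± 0.05, adjusted p = 0.00304), but with library sizes alone the first value was 0.01 and the second was not called (-0.04). Bcl2l1 was lower in EMT6 medium (-0.28 ± 0.05, adjusted p = 8.88e-06) and with IL-6 (-0.18 ± 0.05, adjusted p = 0.00444), and Pim1 with IL-6 (-0.18 ± 0.05, adjusted p = 0.00358). With library sizes alone, none of these 3 values was called (-0.03, -0.03 and -0.04). With background subtracted, the IL-6 values of Cish (-0.12), Bcl2l1 (-0.11) and Pim1 (-0.11) were not called, and without WT IL-6 replicate 2 the IL-6 value of Bcl2l1 was not either (-0.14, adjusted p = 0.0518). Under GM-CSF alone Cish (-0.06), Pim1 (-0.12) and Bcl2l1 (-0.03) were not called, and with library sizes alone all 3 were at or above 0 (0.06, 0.00 and 0.09). Without WT GM-CSF replicate 3, Cish (-0.13) and Pim1 (-0.17) were called lower.

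**Figure D3:**
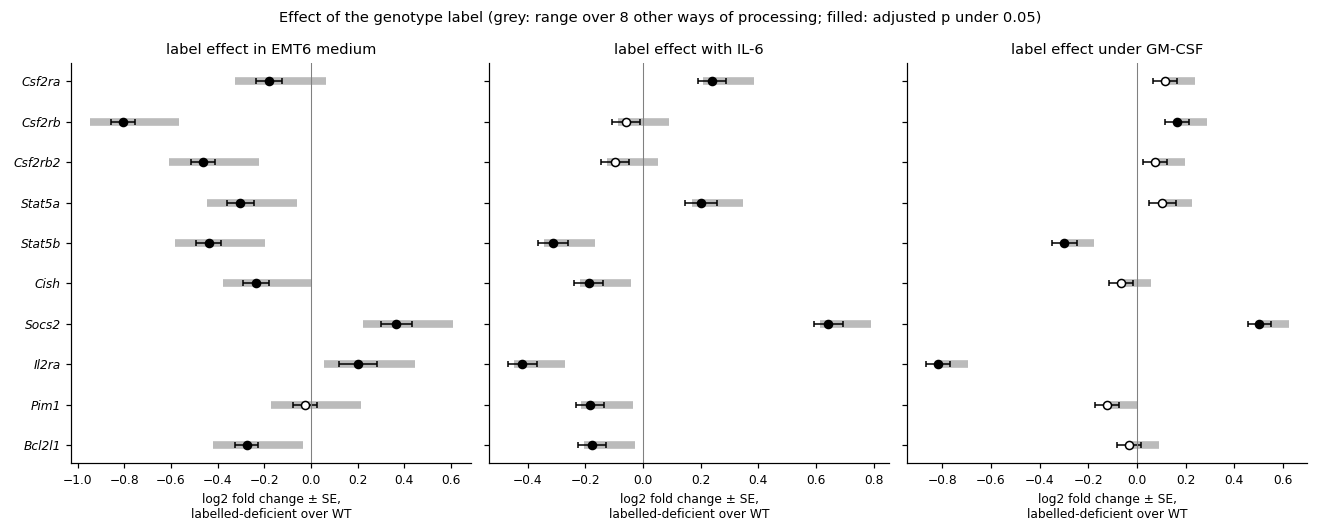
Log2 fold change of labelled-deficient over WT marrow with its SE for each gene in EMT6 medium, with IL-6 and under GM-CSF alone; filled points passed the test and grey bars span the value over 8 other ways of processing. Bars of Socs2 stay above 0 and those of Stat5b below 0 in all 3 panels, while those of Csf2ra (EMT6 medium), Csf2rb and Csf2rb2 (IL-6), Pim1 (EMT6 medium and GM-CSF alone), Cish (EMT6 medium and GM-CSF alone) and Bcl2l1 (GM-CSF alone) reach across 0.

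Whether the effect of a culture condition differed between the genotype labels was tested by the interaction, as the log2 fold change in labelled-deficient minus that in WT marrow. For EMT6 medium, 6 of 10 members were called (1 higher, 5 lower), where 25.6% of all genes tested and 46.7% of those at 5 CPM or more were called. Csf2rb fell more in labelled-deficient than in WT marrow (-0.97 ± 0.07, adjusted p = 5.39e-15), and so did Csf2rb2 (-0.54 ± 0.07, adjusted p = 5.59e-08), Stat5a (-0.41 ± 0.08, adjusted p = 7.40e-05) and Csf2ra (-0.29 ± 0.07, adjusted p = 0.00148). Bcl2l1 rose less (-0.24 ± 0.07, adjusted p = 0.00638), though with library sizes alone this was not called (-0.12). Il2ra went the other way: it fell less in labelled-deficient marrow (1.02 ± 0.09, adjusted p = 8.02e-12), where its level under GM-CSF alone was lower. Stat5b (-0.14 ± 0.07, adjusted p = 0.180), Cish (-0.17 ± 0.07, adjusted p = 0.0891), Socs2 (-0.14 ± 0.08, adjusted p = 0.241) and Pim1 (0.09 ± 0.07, adjusted p = 0.369) were not called. With DESeq2, the calls of Stat5b (-0.27), Cish (-0.30) and Socs2 (-0.27) were made, as they were without a low-count filter (-0.37, -0.40 and -0.37). Leaving out a library made the call of Cish in 10 of 12 cases (-0.21 to -0.29), that of Stat5b in 7 (-0.22 to -0.27) and that of Socs2 in 4 (-0.24 to -0.29).

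For IL-6, 2 of 10 members were called (1 higher, 1 lower), against 7.38% of all genes tested and 15% of those at 5 CPM or more. Il2ra fell less in labelled-deficient than in WT marrow (0.40 ± 0.07, adjusted p = 9.85e-05), and between 0.34 and 0.44 over the 8 other ways of processing. Csf2rb rose less (-0.22 ± 0.07, adjusted p = 0.0408), a call that was lost when any of 9 of the 12 libraries involved was left out, namely WT GM-CSF replicates 1 and 3, WT IL-6 replicates 1 and 2, every labelled-deficient GM-CSF replicate, and labelled-deficient IL-6 replicates 2 and 3, without 1 of which the value was -0.17 to -0.22. The interactions share their GM-CSF libraries, so the values for EMT6 medium and IL-6 are not independent.

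Ratios of counts within a library need no scaling factor and show which members changed unevenly. No test was run on them, and they are given as the count of a gene over that of another in the same library. Csf2rb over Csf2ra was 8.54, 9.87 and 9.04 in labelled-deficient and 13.9, 13.6 and 14.9 in WT EMT6 medium libraries, 9.60, 9.47 and 9.27 and 11.4, 12.0 and 11.4 with IL-6, and 7.55, 7.43 and 7.36 and 6.95, 7.47 and 7.17 under GM-CSF alone. The alpha chain was thus lower relative to the beta chain with EMT6 medium and with IL-6 than under GM-CSF alone in both genotypes, and the genotypes overlapped only under GM-CSF alone.
Csf2rb over Csf2rb2 was 2.68 ± 0.111 in labelled-deficient EMT6 medium libraries and 3.39 ± 0.0431 in WT ones, against group means of 3.20 to 3.41 in the other cultures. It thus stood apart in that 1 group. Stat5b over Stat5a was 1.35 ± 0.102 in labelled-deficient and 1.49 ± 0.0551 in WT EMT6 medium libraries, 1.41 ± 0.0856 and 2.01 ± 0.0194 with IL-6, and 1.34 ± 0.0592 and 1.78 ± 0.0267 under GM-CSF alone. It was lower in labelled-deficient libraries in every culture without overlap of genotypes, narrowly in EMT6 medium (at most 1.42 against at least 1.43).
Among the targets, Socs2 over Cish was 0.283 ± 0.0165 in labelled-deficient and 0.186 ± 0.0174 in WT EMT6 medium libraries, 0.438 ± 0.0134 and 0.247 ± 0.00728 with IL-6, and 0.563 ± 0.0185 and 0.382 ± 0.0373 under GM-CSF alone. Il2ra over Cish was 0.165 ± 0.0140 and 0.121 ± 0.00332, then 0.302 ± 0.00573 and 0.355 ± 0.0122, then 0.333 ± 0.00632 and 0.564 ± 0.0299, in the same order. Within each genotype both ratios were lowest in EMT6 medium, and Il2ra over Cish changed its order of genotypes between EMT6 medium and the other cultures. Pim1 over Cish was 3.19 ± 0.179 in labelled-deficient and 2.77 ± 0.187 in WT EMT6 medium libraries, against means of 1.44 to 1.52 in the other 4 groups, and Bcl2l1 over Cish 1.85 ± 0.155 and 1.91 ± 0.0587, against 0.276 to 0.353.

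**Figure D4:**
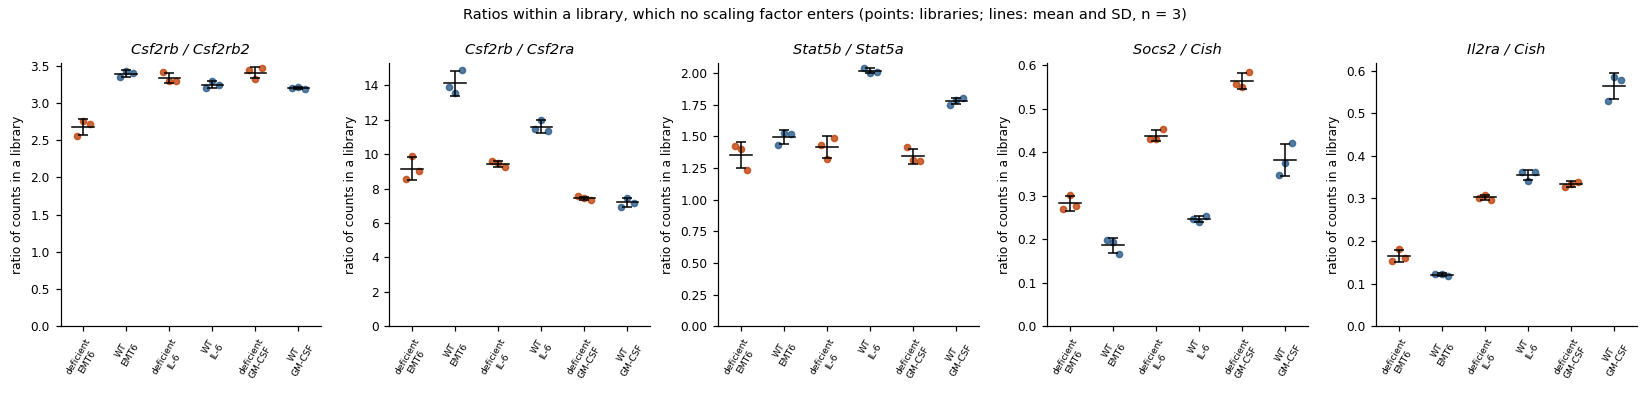
Ratio of the counts of named genes within each library (points; y axis from 0) with the mean and SD of 3 libraries (lines), by genotype label and culture. Csf2rb over Csf2rb2 lies at 2.55 to 2.76 in labelled-deficient EMT6 medium libraries, below all others, and Socs2 over Cish is higher in labelled-deficient than in WT libraries in each culture.

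Other genes of the pathway were counted in 6 lists, which overlap in Bcl2 and Mcl1. With EMT6 medium, 12 of 15 genes of proximal receptor signalling fell in labelled-deficient cultures and none rose, and 12 fell and 1 rose in WT cultures (median log2 fold change -1.23 and -1.08). Of 13 negative regulators 9 fell and 1 rose in labelled-deficient, and 11 fell and 1 rose in WT cultures (-0.83 and -0.86). Of 16 other described STAT5 or GM-CSF targets 12 fell and 3 rose, and 13 fell and 2 rose (-1.79 and -1.61). Of the 5 other STAT genes 3 fell and 1 rose in labelled-deficient, and 4 fell and 1 rose in WT cultures. Of the 10 BCL-2 family genes 5 fell and 3 rose, and 7 fell and 1 rose, and of the 7 testable ligands and receptor relatives 5 fell and 2 rose, and 4 fell and 3 rose. These shares stand against 61.6% and 64.1% lower among all genes at 5 CPM or more. Over the 8 other ways of processing, 9 to 15 proximal signalling genes fell in labelled-deficient and 9 to 12 in WT cultures, 8 to 13 and 8 to 11 negative regulators, and 12 to 13 other targets in both. The medians of these 3 lists stayed negative, while with library sizes alone those of the ligands and receptor relatives, the other STAT genes and the BCL-2 family turned positive in labelled-deficient cultures (0.26, 0.06 and 0.17), and that of the other STAT genes in WT cultures too (0.03).

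Jak2, the kinase on the beta chain, averaged 200.1 ± 6.95 CPM with EMT6 medium in labelled-deficient and 239 ± 8.46 CPM in WT cultures, against 871 ± 5.28 and 733 ± 25.3 CPM under GM-CSF alone (-2.12 ± 0.05 and -1.62 ± 0.05). The fall was greater in labelled-deficient marrow (interaction -0.50 ± 0.07). The PI3-kinase genes Pik3cg (-3.14 ± 0.07 in labelled-deficient, -3.27 ± 0.06 in WT) and Pik3cd (-2.19 ± 0.06 and -2.26 ± 0.06), Ywhaz (-1.56 ± 0.05 and -1.18 ± 0.05), the kinase gene Jak3 (-1.59 ± 0.07 and -1.61 ± 0.07) and the adaptor gene Shc1 (-1.23 ± 0.06 and -1.38 ± 0.06) fell too. With IL-6, Jak3 rose by 0.62 ± 0.06 in labelled-deficient and 0.73 ± 0.06 in WT cultures. By genotype label, 12 of 15 proximal signalling genes were lower and 1 higher in EMT6 medium, 11 lower and 0 higher with IL-6, and 10 lower and 3 higher under GM-CSF alone, where 39.8%, 36.7% and 33.6% of genes at 5 CPM or more were called lower. With the other ways of processing the count in EMT6 medium was 3 to 13 lower.

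Of the negative regulators, Dok2, an adaptor that restrains receptor signalling, fell most (-3.46 ± 0.06 in labelled-deficient, -3.51 ± 0.06 in WT). The phosphatase genes Inpp5d (-1.34 ± 0.06 and -1.43 ± 0.06), Ptpn1 (-1.17 ± 0.05 and -1.02 ± 0.05) and Ptpn2 (-1.20 ± 0.06 and -0.92 ± 0.06) and the inhibitor gene Socs1 (-0.95 ± 0.05 and -1.03 ± 0.05) fell as well. Socs3, a STAT3-induced inhibitor, behaved otherwise: it averaged 299.7 ± 1.46 CPM in labelled-deficient and 592 ± 29.2 CPM in WT EMT6 medium cultures, 444 ± 6.70 and 656 ± 14.5 CPM with IL-6, and 311 ± 6.67 and 349 ± 13.1 CPM under GM-CSF alone. With EMT6 medium it was not called in labelled-deficient cultures (-0.05 ± 0.05, adjusted p = 0.289, and 0.57 with library sizes alone) and rose in WT cultures (0.76 ± 0.05), with an interaction of -0.81 ± 0.06, and with IL-6 it rose in both genotypes (0.51 ± 0.05 in labelled-deficient, 0.91 ± 0.05 in WT).

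Among other described targets, the chemokine genes Ccl17 (-6.74 ± 0.12 in labelled-deficient, -6.98 ± 0.13 in WT) and Ccl22 (-5.29 ± 0.07 and -4.20 ± 0.07) fell most with EMT6 medium. Irf4 (-3.14 ± 0.06 and -2.22 ± 0.06), Pparg (-2.56 ± 0.09 and -2.82 ± 0.08), Myc (-2.61 ± 0.06 and -2.37 ± 0.06), Ccnd2 (-2.33 ± 0.06 and -1.71 ± 0.06), Bcl2 (-1.69 ± 0.07 and -1.33 ± 0.07) and Pim3 (-1.29 ± 0.05 and -0.97 ± 0.05) fell as well. Pim2, a second Pim kinase gene, rose (2.02 ± 0.08 and 1.21 ± 0.07), unlike Pim1. By genotype label under GM-CSF alone, Ccl22 averaged 458 ± 2.64 CPM in labelled-deficient and 174 ± 2.15 CPM in WT cultures (1.40 ± 0.05), while Pim2 averaged 12.7 ± 0.557 and 31.3 ± 1.60 CPM (-1.31 ± 0.08).

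Beside Bcl2l1, the survival gene Mcl1 rose with EMT6 medium in labelled-deficient (0.22 ± 0.04) and fell in WT cultures (-0.34 ± 0.04), and Bcl2l11, which encodes the pro-apoptotic BIM, rose in labelled-deficient (0.63 ± 0.06) and was not called in WT cultures (-0.02 ± 0.06, adjusted p = 0.721). With library sizes alone Mcl1 was positive in WT cultures too (0.16), and with DESeq2 it was negative in both. Pmaip1, encoding NOXA, rose in both (1.26 ± 0.05 and 0.40 ± 0.05), while Bak1 (-1.57 ± 0.06 and -1.10 ± 0.05), Bid (-1.65 ± 0.07 and -0.70 ± 0.06), Bad (-1.29 ± 0.07 and -0.85 ± 0.07) and Bcl2l2 (-0.86 ± 0.07 in each) fell. Of the other STAT genes, Stat6 (-1.69 ± 0.05 in labelled-deficient, -1.38 ± 0.05 in WT) and Stat3 (-0.56 ± 0.06 and -0.65 ± 0.06) fell, though Stat3 was at 0.06 in labelled-deficient cultures with library sizes alone.

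The ligand genes themselves were at the edge of detection: Csf2 had at most 13, Il5 at most 7 and Il3 at most 2 counts summed over the 3 libraries of a group, too few to test. The receptor genes Il3ra (-1.30 ± 0.08 in labelled-deficient, -0.65 ± 0.07 in WT), Csf1r (-2.38 ± 0.05 and -2.06 ± 0.05), Csf3r (-0.95 ± 0.06 and -0.75 ± 0.06) and, at group means of 0.650 to 4.46 CPM, Il2rb (-1.96 ± 0.25 and -0.61 ± 0.22) fell with EMT6 medium. Flt3 (1.59 ± 0.10 and 1.32 ± 0.10) and Il5ra (1.36 ± 0.26 and 1.46 ± 0.28) rose, the second on levels of 3.35 ± 0.738 CPM in labelled-deficient and 2.56 ± 0.969 CPM in WT cultures. Il2rg, the chain that Il2ra works with, fell in labelled-deficient (-0.27 ± 0.05) and rose in WT cultures (0.22 ± 0.05), and with library sizes alone both values were positive (0.35 and 0.71). The interaction of Il2rg was -0.49 ± 0.07 (adjusted p = 7.63e-07).

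**Figure D5:**
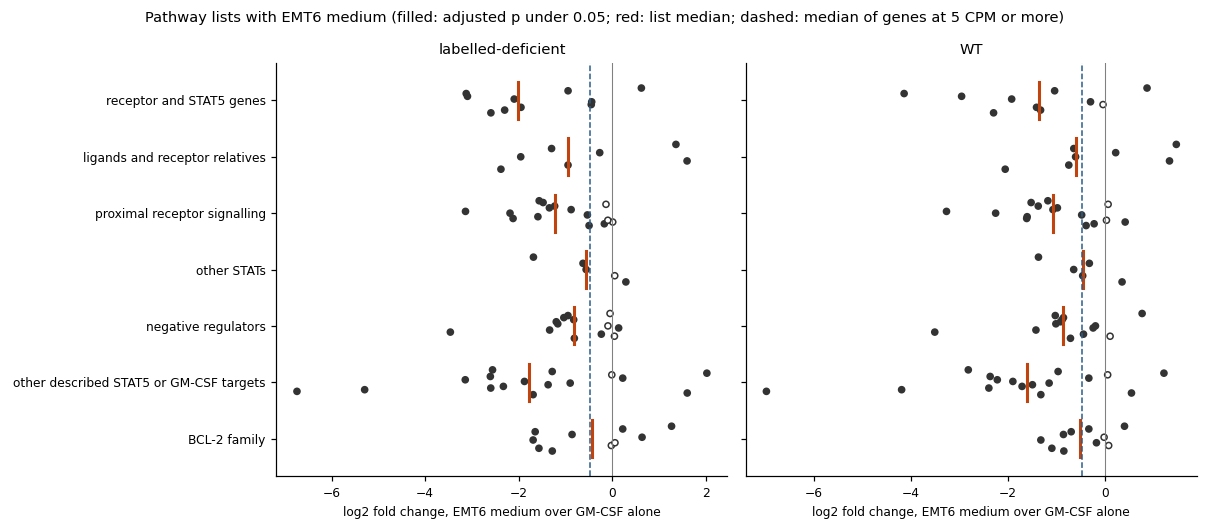
Log2 fold change of EMT6 medium over GM-CSF alone for the 10 receptor and STAT5 genes and 6 lists of pathway genes (points, 1 per gene), in labelled-deficient (left) and WT (right) marrow. Red bars mark list medians, from -2.03 to -0.44 in labelled-deficient marrow, and the dashed line marks the median of genes at 5 CPM or more (-0.49 and -0.48); with library sizes alone the medians of 3 lists turn positive in labelled-deficient marrow.

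The genes whose 6 group means ran most like those of 3 members were found among 11760 other genes by distance between centred log2 CPM. Nearest to Csf2rb were Amacr (distance 0.221), Sh3pxd2b (0.225) and Cttnbp2nl (0.236). Sh3pxd2b averaged 65.9 CPM in labelled-deficient and 125 CPM in WT EMT6 medium cultures, 352 and 402 CPM with IL-6, and 365 and 336 CPM under GM-CSF alone. Nearest to Cish were Gpx1 (0.128), Fem1a (0.138) and Plp2 (0.139), and nearest to Il2ra were Ptpro (0.332), Kmo (0.421) and H2-DMb2 (0.456). Il2ra thus had no neighbour as close as those of Cish, with H2-DMb2 at 20.4 CPM in labelled-deficient and 23.8 CPM in WT EMT6 medium cultures, 145 and 230.3 CPM with IL-6, and 242 and 420.0 CPM under GM-CSF alone. The distances rest on 6 groups that share their scaling, and say nothing of shared control.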

How the data were processed

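Poly(A) RNA of 18 mouse bone marrow cultures, in 6 groups of 3, was sequenced in bulk. The deposited gene counts were used as they are. HISAT2 2.1.0, HTSeq 0.13.5 and the mm10 build are named in the submitters' processing notes; the annotation, strand setting and filters behind the counts are not given in the sources used here. Entries that name no gene stayed out of library sizes and tests, and the normalized table that the authors deposited was not used. edgeR 4.0.16 in R 4.3.3 (TMM scaling, filterByExpr, quasi-likelihood F test) was run on all 18 libraries with 1 mean per group. Within each of 9 comparisons, p-values over 28334 genes were adjusted by the Benjamini-Hochberg method, and an adjusted p under 0.05 makes a call. The SE is the absolute log2 fold change over the square root of F. Precision is set by 9.58 to 32.0 M gene counts per library and a common coefficient of biological variation of 0.0480.

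The 10 members, the gene lists, the naming rule and the tests were chosen with earlier results of these data known. The naming rule took all members, and of each list up to 6 genes with the smallest p plus a set of always-named genes; for likeness it took the 3 nearest genes to each of 3 members. Alternative settings were a DESeq2 1.42.0 fit, DESeq2 size factors within edgeR, scaling by library size alone, keeping all genes with a count, keeping only genes at a mean CPM of 5 in a group, fitting just the groups compared, a replicate block, subtracting a background (exon length times the density of reads outside features) and leaving out each library. The test was also run on simulated counts with known changes. Its outcome there is not given here. That run is therefore no evidence on the accuracy of the EMT6 medium, IL-6 or genotype comparisons. Replicate numbers were not used to pair the samples in the fit reported here. The correlations of same-numbered samples ran from -0.34 to 0.26. No other pairs were set against them, so they cannot decide whether samples shared a pool.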

Additional observations from a re-analysis of the deposited data

Results flagged for a closer look

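The effect of EMT6 medium differed between the genotype labels, by the interaction test, for 6 of 10 genes. The same test called 25.6% of all genes tested and 46.7% of those at 5 CPM or more. The effect was lower in labelled-deficient than in WT marrow for Csf2rb (-0.97 on the log2 scale), Csf2rb2 (-0.54), Stat5a (-0.41), Csf2ra (-0.29) and Bcl2l1 (-0.24), and higher for Il2ra (1.02). Cell type markers had interactions too. Of 7 neutrophil markers 6 had a positive one and none a negative one (median 1.10), the direction of Il2ra and not of the other genes. Of 4 eosinophil markers 3 had a positive and none a negative one (median 1.24), and of 6 T and NK cell markers 3 a positive one (0.76). Of 5 dendritic cell markers 3 had a positive and 1 a negative one (0.35). Of 5 mast cell and basophil markers 3 had a positive and 1 a negative one (0.20). Of 5 macrophage markers 4 had a negative and 1 a positive one (-0.31), and of 4 B cell markers 1 a negative one (-0.16). Reads outside annotated features differed between the labels too, at 50.1% to 50.4% in labelled-deficient and 34.7% to 37.5% in WT EMT6 medium libraries. With background subtracted by that density, the values were -0.93 for Csf2rb, -0.50 for Csf2rb2, -0.41 for Stat5a, -0.26 for Csf2ra, -0.21 for Bcl2l1 and 0.96 for Il2ra, all still called. The part of the marker shifts was not tested.

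The effect of IL-6 differed between the labels for Il2ra (0.40). This interaction was called for 7.38% of all genes tested and 15% of those at 5 CPM or more. For Csf2rb (-0.22, adjusted p = 0.0408 in edgeR's quasi-likelihood test) the call was lost when any of 9 of the 12 libraries involved was left out. Of 5 mast cell and basophil markers 4 had a positive interaction with IL-6, and of 7 neutrophil markers 4 had a negative and 1 a positive one. Their part was not tested.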

How the results depend on the processing

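Counts of the 10 members called stayed within 1.5 times under every alternative, except in 3 comparisons. The genotype count under GM-CSF alone was 7 in place of 4 with library sizes alone, without a low-count filter, with the filter at mean CPM of 5 and with background subtracted. With IL-6 it was 5 in place of 8 with library sizes alone and with background subtracted, and the IL-6 interaction count was 4 in place of 2 with DESeq2. With each library left out, that interaction count ran from 1 to 2. A replicate block changed no count of calls, which stayed at 10, 9, 6 and 7 for EMT6 medium and IL-6 in labelled-deficient and WT marrow, 9, 8 and 4 for the genotype in EMT6 medium, with IL-6 and under GM-CSF alone, and 6 and 2 for the interactions. Of the single values under an alternative, 43 turned sign, 52 lost and 71 gained a call, and 1214 did neither.

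The sign changes follow as log2 fold changes. With library sizes alone, EMT6 medium gave 0.165 and 0.451 for Stat5a and 0.175 and 0.195 for Stat5b in labelled-deficient and WT marrow. The genotype gave 0.00646 for Cish, 0.0628 for Csf2ra and 0.215 for Pim1 in EMT6 medium, 0.0898 for Csf2rb and 0.0516 for Csf2rb2 with IL-6, and 0.0887 for Bcl2l1, 0.0581 for Cish and 0.000976 for Pim1 under GM-CSF alone. The Stat5b interaction with IL-6 was 0.0115. With the filter at mean CPM of 5, Stat5a with EMT6 medium in WT was 0.223, the genotype values were 0.00177 for Bcl2l1 under GM-CSF alone, 0.0128 for Csf2rb with IL-6 and 0.0592 for Pim1 in EMT6 medium, and the Stat5b interaction with IL-6 was 0.0218. With background subtracted, the first 4 of these were 0.191, 0.0281, 0.0128 and 0.0790. Without a low-count filter, the genotype values under GM-CSF alone were 0.0549 for Bcl2l1 and 0.0246 for Cish, the Pim1 interaction with EMT6 medium was -0.139 and Stat5b with IL-6 in labelled-deficient marrow was -0.00019. With DESeq2 and with its size factors, that Pim1 interaction was -0.0384 and -0.0340, and that Stat5b value -0.0266 and -0.0262. With only the groups compared, Stat5a with EMT6 medium in WT was 0.0228 and the Stat5b interaction with IL-6 0.00593. Leaving out a library gave -0.0281 to 0.133 for the Pim1 interaction with EMT6 medium, -0.0130 to 0.0489 and -0.0111 to 0.0409 for Stat5b with IL-6 in labelled-deficient and WT marrow, and -0.0397 to 0.0250 for its interaction. The cause was not tested.

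Library sizes alone moved the median of all genes by 0.62 and 0.49 for EMT6 medium in labelled-deficient and WT marrow and by 0.24, 0.14 and 0.12 for the genotype in EMT6 medium, with IL-6 and under GM-CSF alone, and DESeq2 size factors moved it by -0.27 and -0.14 for EMT6 medium. Leaving out any library of the comparison moved it by -0.23 to -0.20 for EMT6 medium in labelled-deficient marrow and by -0.14 to -0.0053 in WT marrow. Over all 8 alternatives that keep every library, the filters and background subtraction among them, the share of calls that were higher ran from 49.0% to 77.6% (62.3% as reported) for EMT6 medium in labelled-deficient marrow, 45.0% to 74.0% (57.5%) in WT marrow, 40.5% to 85.4% (62.0%) for the genotype in EMT6 medium, 27.7% to 68.1% (39.6%) with IL-6, 36.8% to 59.2% (36.9%) under GM-CSF alone, 26.1% to 45.6% (38.7%) for IL-6 in labelled-deficient marrow, and 21.1% to 51.1% (39.6%) and 22.7% to 69.2% (51.7%) for the interactions with IL-6 and EMT6 medium. Background took its largest share of counts in Il2ra and Socs2 with EMT6 medium.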
